A study of Mus musculus with 6 samples.

Results

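The 8 genes described here encode sperm proteins of gamete fusion and their nearest relatives: Izumo1, Izumo2, Izumo3, Izumo4, Tmem95, Spaca6, Dcst1 and Dcst2. They were chosen by symbol among the 53700 genes of the deposited table, and all 8 were found once each. Libraries had been made from primary spermatocytes, the germ cells in meiotic prophase, which were sorted by flow cytometry after Hoechst staining of testis cells from adult C57BL/6 mice of 8 weeks. The libraries formed a circSry KO group, lacking the circular RNA of the sex-determining gene Sry, and a wild-type (WT) group, with 3 libraries each. The labels give neither the way circSry was removed nor the animal behind each library, and the p-values below therefore reflect the spread among these 6 samples, which may be technical.

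At fertilization IZUMO1 on the sperm head binds JUNO, the product of Izumo1r, on the egg membrane, and the membranes then fuse. In mice TMEM95, SPACA6, DCST1 and DCST2 are also needed in sperm for fusion, while sperm without them can still reach and bind the egg. The genes are known as testis genes whose products are laid down in the forming acrosome or sperm membrane after meiosis, long before they act.

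In GENCODE M21 on GRCm38, Izumo1 (chr7:45621811-45628823) and Izumo2 (chr7:44708742-44719844) lie on the plus strand of chromosome 7 and Izumo4 (chr10:80702184-80705373) and Spaca6 (chr17:17827158-17843009) on the plus strand of their chromosomes. Izumo3 (chr4:92144329-92147234) and Tmem95 (chr11:69876684-69878018) lie on minus strands, and Dcst1 (chr3:89350219-89365253, minus) and Dcst2 (chr3:89361975-89377549, plus) overlap in their spans. Sequences are shown for a pair of gene starts, credited to RefSeq on GRCm38.p6. Dcst1 and Dcst2 lie head to head on chromosome 3, with RefSeq start sites at 89365253 (minus strand) and 89365319 (plus strand), 66 bases apart. The 65 bases between them, at chr3:89365254-89365318 and read in the direction of Dcst2, lie in no GENCODE exon of either gene and are shown because both genes start at their edges. The 250 bases before the start of Izumo1, at chr7:45621561-45621810 on the plus strand, are shown because they hold a full cyclic AMP response element, the site bound by the spermatid activator CREM, given in capitals.
Between Dcst1 and Dcst2: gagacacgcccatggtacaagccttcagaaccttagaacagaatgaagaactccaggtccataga
Before Izumo1: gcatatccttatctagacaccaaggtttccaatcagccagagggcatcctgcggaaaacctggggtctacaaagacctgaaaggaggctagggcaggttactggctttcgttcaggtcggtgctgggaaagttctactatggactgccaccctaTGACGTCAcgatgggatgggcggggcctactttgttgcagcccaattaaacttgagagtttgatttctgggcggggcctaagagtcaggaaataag

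Start windows of 300 bases, 250 before and 50 after the start, were found for 7 of the 8 genes, Izumo4 being the exception. Searched on both strands, the full element TGACGTCA was present in Izumo1 only, beginning 96 bases before its start, and in 1.79% of all 32851 windows. Its shorter core TGACG, which lies within the full element, was in Izumo1 and Tmem95 and in 20.8% of windows. GTTGCC, a part of the X box bound by RFX factors, was in Spaca6 and in 12.5% of windows. These are matches of letters, and no binding was measured.

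The study's title names miR-138-5p as a microRNA that circSry sponges, that is, holds away from its targets. Its mature sequence is shown with the seed, bases 2 to 8, in capitals.
mmu-miR-138-5p: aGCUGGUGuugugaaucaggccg
The seed match CACCAGC was searched in the 3' untranslated regions of GENCODE M21 (GRCm38). It was in 0 of the 7 fusion genes with such a region, Tmem95 having none annotated, and in 14.9% of 21173 genes. The regions of the fusion genes were short, with a median longest length of 217 bases against 1084 over all genes.

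The tables held 8191397 to 9294723 estimated counts per library in circSry KO and 7400360 to 8422943 in WT. No read was assigned to Sry (0 counts in all 6 libraries), and linear gene counts do not report on a circular transcript, so the labels could not be checked by the deleted RNA. The spermatocyte gene Hspa2 was abundant in every library, at 641 to 770 TPM in circSry KO and 906 to 1440 TPM in WT. Piwil1, a gene of pachytene spermatocytes, stood at 17.2, 31.1 and 168 TPM in circSry KO replicates 1, 2 and 3 and at 352 to 644 TPM in WT, and Sycp3, of the meiotic chromosome axis, at 122, 61.6 and 307 TPM in circSry KO replicates 1, 2 and 3 and at 326 to 430 TPM in WT. Piwil1 and Sycp3 were lowest in circSry KO replicates 1 and 2, whereas Hspa2 in TPM was lowest in replicate 3. Piwil1 and Hspa2 do not stand for their stage: of 18 pachytene and diplotene markers tested, 9 had a positive log2 fold change. Of 21 early prophase markers tested, Sycp3 among them, 3 had a positive log2 fold change, and the median was -0.75. The spermatid gene Prm1 was present too, at 4223 to 16553 TPM in circSry KO and 1831 to 2388 TPM in WT. circSry KO replicate 3 stood apart: its log2 levels correlated across genes at 0.863 and 0.757 with circSry KO replicates 1 and 2 and at 0.824 to 0.910 with the WT libraries. Genes in the quintile with the shortest transcripts lay at a median log2 difference from the WT mean of 0.67, 0.11 and 1.24 in circSry KO replicates 1, 2 and 3 and of 0.33, -0.24 and -0.07 in WT replicates 1, 2 and 3. Those in the quintile with the longest lay at -0.43, 0.10 and -0.88 in circSry KO replicates 1, 2 and 3 and at -0.33, 0.27 and 0.09 in WT replicates 1, 2 and 3. The trend on length was thus largest in circSry KO replicate 3, and circSry KO replicate 1 and WT replicate 1 had a smaller one of the same direction. Fold changes of the fusion genes and medians of the other lists are also given without circSry KO replicate 3 where they differ in call or direction or by a wide margin.

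All 8 genes were expressed in every library, with 133 to 2849 counts in circSry KO and 71 to 1343 in WT, and all passed the filter on low counts. Levels between genes are compared in TPM (transcript abundance corrected for length and depth). In circSry KO, Izumo4 averaged 455 ± 223 TPM, Izumo2 260 ± 76.3, Izumo3 126 ± 39.3 and Spaca6 119 ± 8.36 (SD, n = 3). Izumo1 averaged 81.2 ± 45.7 TPM in circSry KO, Dcst1 64.3 ± 42.5, Dcst2 61.0 ± 43.7 and Tmem95 30.2 ± 18.1 (SD, n = 3). In WT, Izumo4 averaged 301 ± 83.7 TPM, Spaca6 82.8 ± 19.8, Izumo2 74.2 ± 13.5 and Dcst2 41.6 ± 0.283 (SD, n = 3). Izumo1 averaged 39.7 ± 2.30 TPM in WT, Dcst1 38.7 ± 2.82, Izumo3 37.9 ± 18.3 and Tmem95 15.4 ± 1.76 (SD, n = 3).

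Tmem95 was the lowest of the 8 in all 6 libraries, and Izumo4 was the highest in each but circSry KO replicate 2, where Izumo2 was. In WT the lowest Izumo4 library, at 245 TPM, lay above the highest Spaca6 library, at 94.6 TPM, whereas Spaca6 and Izumo2 overlapped, as did Dcst2, Izumo1, Dcst1 and Izumo3. In circSry KO the ranges of Izumo4 and Izumo2 overlapped, and so did those of Izumo3 and Spaca6. Izumo3 thus stood in the third place of the averages in circSry KO and in the seventh in WT. Summed over the 8 genes, circSry KO libraries held 1177 to 1233 TPM and WT libraries 562 to 734, without overlap. The circSry KO sums differed in make-up: Izumo4 held 706 of the 1177 TPM in replicate 3, against 380 and 280 TPM in replicates 1 and 2. In WT Izumo4 held 245 to 397 TPM.

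The comparison of circSry KO with WT asked which messenger RNAs differ when circSry is missing. Counts were tested with edgeR's quasi-likelihood test over 16829 genes with Benjamini-Hochberg adjustment, and levels are given as CPM (counts scaled to library size and composition). All 8 fusion genes had a positive log2 fold change (circSry KO over WT), from 0.60 to 2.10 with a median of 1.17, where the median of all genes tested was 0.12. None passed an adjusted p of 0.05 in edgeR, nor did any other gene (0% of those tested), and limma-voom called 0 as well. The smallest adjusted p among the fusion genes was 0.087. At an unadjusted p under 0.05, 6 of the 8 were higher and 0 lower, while 13.6% of all genes were higher and 9.84% lower. DESeq2 called 5 of the 8 higher after adjustment, namely Izumo1, Izumo2, Izumo3, Tmem95 and Dcst1, against 6.90% of all genes. In CPM the lowest circSry KO library exceeded the highest WT library for 6 of the 8, against 14.1% of all genes.

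**Figure D1:**
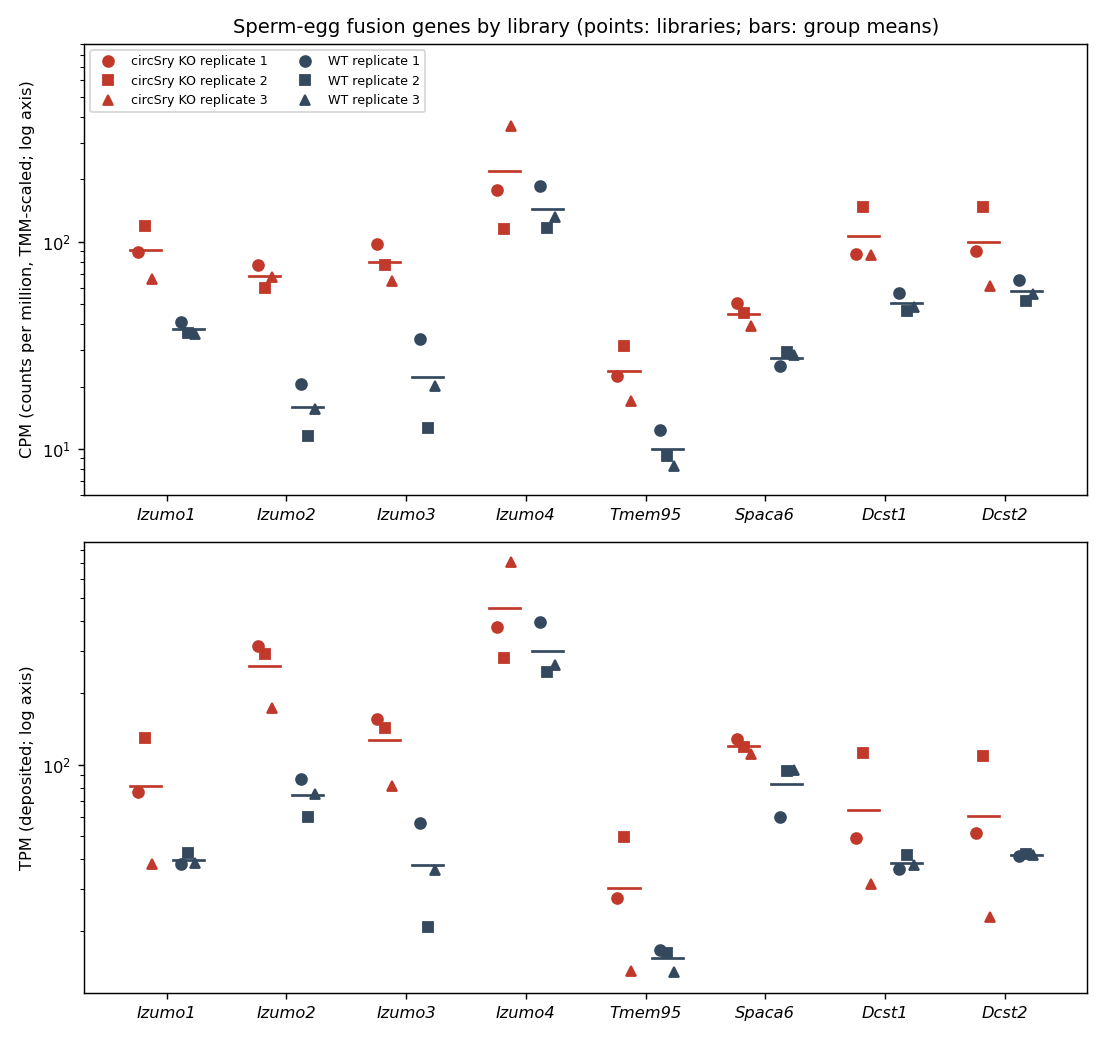
Level of each fusion gene in each library, in CPM (upper panel) and deposited TPM (lower panel), both on log axes, with circSry KO libraries in red left of WT libraries in dark blue and bars at group means. In CPM the groups are separate for 6 genes and overlap for Izumo4 and Dcst2, while in TPM they are separate for 3 genes, Izumo2, Izumo3 and Spaca6.

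Among the ligand genes, Izumo1 encodes the receptor-binding protein itself. It stood at 89.5, 119 and 66.4 CPM in circSry KO replicates 1, 2 and 3 and at 41.2, 36.3 and 35.9 CPM in WT replicates 1, 2 and 3. Every circSry KO library was above every WT library, and replicate 2 was the highest. The log2 fold change was 1.28 ± 0.33 (SE), or 2.42-fold (edgeR adjusted p = 0.0951). In TPM the picture depended on 1 library: circSry KO replicates 1 and 2 had 76.4 and 129 TPM, replicate 3 had 38.1 and the WT libraries 38.1 to 42.4. On this scale circSry KO replicate 3 was level with WT. The last exons of Izumo1 share 654 bases with Rasip1, a gene of blood vessels on the same strand, so some reads could be divided between them. Rasip1 had 99 to 126 counts in circSry KO and 77 to 106 in WT, below the 300 or more of Izumo1 in each library.

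Izumo2 and Izumo3 encode relatives of IZUMO1 that share its Izumo domain, and mouse IZUMO3 is needed to form the acrosome. Izumo2 stood at 77.5, 60.1 and 67.2 CPM in circSry KO replicates 1, 2 and 3 and at 20.6, 11.5 and 15.5 CPM in WT replicates 1, 2 and 3. In CPM the groups were far apart and circSry KO replicate 3 lay within its own group. With the length trend removed, Izumo2 had 54.1, 62.4 and 30.6 CPM in circSry KO replicates 1, 2 and 3 and 19.4 to 21.9 in WT. The log2 fold change of 2.10 ± 0.34 (SE) was the largest of the 8 genes (edgeR adjusted p = 0.087). Izumo3 stood at 97.2, 77.5 and 64.3 CPM in circSry KO replicates 1, 2 and 3 and at 33.8, 12.6 and 20.2 CPM in WT replicates 1, 2 and 3. Its groups did not overlap either, though the WT libraries spread widely. Its log2 fold change was 1.85 ± 0.42 (SE; edgeR adjusted p = 0.0891). In TPM Izumo2 had 173 to 316 in circSry KO and 60.4 to 87.3 in WT, and Izumo3 81.3 to 155 in circSry KO and 20.7 to 57.1 in WT.

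Izumo4 encodes the member of the family that lacks a membrane anchor. It stood at 178, 115 and 363 CPM in circSry KO replicates 1, 2 and 3 and at 185, 116 and 132 CPM in WT replicates 1, 2 and 3. Only circSry KO replicate 3 was above the WT range, and the other circSry KO libraries lay within or just below it. The log2 fold change was 0.60 ± 0.45 (SE; edgeR adjusted p = 0.45), no larger than the replicates' own scatter, and without circSry KO replicate 3 it was -0.03 (edgeR adjusted p = 0.955). Of the summed TPM of the 4 Izumo genes, Izumo4 held 41.0%, 33.2% and 70.7% in circSry KO replicates 1, 2 and 3 and 63.6% to 68.5% in WT. Its share was lower in circSry KO replicates 1 and 2 than in any WT library and higher in replicate 3.

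Tmem95 encodes a small membrane protein of the acrosome that is needed for fusion. It stood at 22.6, 31.5 and 17.0 CPM in circSry KO replicates 1, 2 and 3 and at 12.4, 9.21 and 8.28 CPM in WT replicates 1, 2 and 3. All circSry KO libraries were above all WT libraries. The log2 fold change was 1.25 ± 0.38 (SE), or 2.38-fold (edgeR adjusted p = 0.114). In TPM circSry KO replicate 3, at 13.5, lay inside the WT range of 13.4 to 16.7, while circSry KO replicates 1 and 2 had 27.6 and 49.5.

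Spaca6 encodes an immunoglobulin-like sperm protein that forms a complex with IZUMO1. It stood at 50.8, 45.2 and 39.0 CPM in circSry KO replicates 1, 2 and 3 and at 25.0, 29.4 and 28.3 CPM in WT replicates 1, 2 and 3. The groups did not overlap, and the libraries within each lay close together. The log2 fold change was 0.71 ± 0.30 (SE), or 1.63-fold (edgeR adjusted p = 0.198). Its effective length in the authors' values, which follows the mix of transcripts, was 465, 580 and 269 bases in circSry KO replicates 1, 2 and 3 and 453 to 538 in WT. After removal of each library's trend on length the log2 fold change was -0.03 (edgeR adjusted p = 0.972), and without circSry KO replicate 3 as well it was 0.18 (edgeR adjusted p = 0.599). Mir99b, Mirlet7e and Mir125a lie within the Spaca6 locus and had 0 counts in all 6 libraries.

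Dcst1 and Dcst2 encode membrane proteins of the DC-STAMP family, related to the fly sperm protein sneaky. Dcst1 stood at 87.1, 147 and 86.3 CPM in circSry KO replicates 1, 2 and 3 and at 56.6, 46.5 and 48.3 CPM in WT replicates 1, 2 and 3. Its groups did not overlap, and its log2 fold change was 1.08 ± 0.33 (SE; edgeR adjusted p = 0.118). Dcst2 stood at 90.4, 147 and 61.2 CPM in circSry KO replicates 1, 2 and 3 and at 65.7, 51.7 and 55.7 CPM in WT replicates 1, 2 and 3. Here circSry KO replicate 3 fell inside the WT range, and the log2 fold change was 0.79 ± 0.38 (SE; edgeR adjusted p = 0.246). In TPM circSry KO replicate 3 was below all WT libraries for both genes, at 31.4 against 36.4 to 41.8 for Dcst1 and at 22.8 against 41.4 to 41.9 for Dcst2.

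The pair that shares the 65-base start region printed above kept close levels. The TPM of Dcst1 over that of Dcst2 was 0.954, 1.03 and 1.37 in circSry KO replicates 1, 2 and 3 and 0.879, 0.998 and 0.911 in WT replicates 1, 2 and 3. The ratio was highest in circSry KO replicate 3, and the other circSry KO libraries lay within or just above the WT range. The exons of these 2 genes share 0 bases, while Dcst1 shares 1268 exon bases with the pseudogene Gm10702 on the other strand. Gm10702 had 3 to 53 counts in circSry KO and 10 to 20 in WT, against 677 to 1275 of Dcst1 in circSry KO and 399 to 414 in WT.

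A ratio of 2 genes within a library does not depend on how libraries were scaled, but it does depend on length where a library has a length trend. The TPM of Dcst1 over that of Izumo1 was 0.645, 0.869 and 0.824 in circSry KO replicates 1, 2 and 3 and 0.953 to 0.987 in WT. Dcst2 over Izumo1 was 0.676, 0.841 and 0.599 in circSry KO replicates 1, 2 and 3 and 0.990 to 1.08 in WT. In TPM both ratios were lower in every circSry KO library than in any WT library. For Dcst2 over Izumo1 this held in CPM too, at 0.921 to 1.24 in circSry KO and 1.42 to 1.59 in WT, and with the length trend removed, at 1.06 to 1.16 in circSry KO and 1.27 to 1.65 in WT. For Dcst1 over Izumo1 it did not: in CPM circSry KO replicate 3 had 1.30 against 1.28 to 1.37 in WT, and with the length trend removed it had 1.61, above the 1.15 to 1.42 of WT. Tmem95 over Izumo1 was 0.355 to 0.383 in circSry KO and 0.346 to 0.438 in WT, so these 2 genes kept overlapping proportions. Izumo2 over Izumo1 was 4.13, 2.26 and 4.55 in circSry KO replicates 1, 2 and 3 and 1.42 to 2.29 in WT, with circSry KO replicate 2 inside the WT range. These ratios were not tested.

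**Figure D2:**
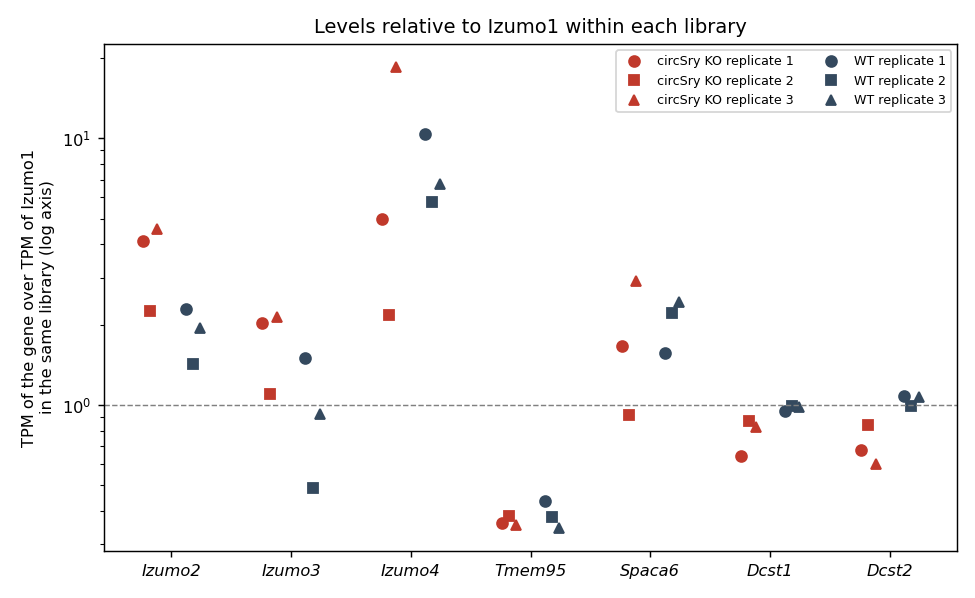
TPM of each other fusion gene divided by the TPM of Izumo1 in the same library, on a log axis, with circSry KO libraries in red left of WT libraries in dark blue; the dashed line marks equal TPM. In TPM Dcst1 and Dcst2 lie lower relative to Izumo1 in all 3 circSry KO libraries than in WT, which for Dcst1 does not hold in circSry KO replicate 3 on the other scales, Tmem95 overlaps, and Izumo4 spreads from 2.17 to 18.5 across circSry KO.

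Of the 8 genes, 2 had every circSry KO library above every WT library on all 3 scales examined, CPM, TPM and CPM with the length trend removed: Izumo2 and Izumo3. On TPM the count was 3 of 8, against 5.81% of all genes, with Spaca6 as the third. The TPM of Spaca6 in circSry KO replicate 3 rested on an effective length of 269 bases, against 453 to 538 in WT. With the length trend removed Spaca6 had 20.6 CPM in that library, below the 24.8 to 44.9 of WT. On that scale the count was 6 of 8, against 12.3% of all genes, with Dcst2 in place of Spaca6 among the genes that were separate in CPM. Tmem95 and Dcst2 were only just separate there. Their length-corrected CPM was 11.8 and 65.5 in circSry KO replicate 3 and 11.6 and 63.8 in WT replicate 1. Izumo4 overlapped on each scale. With the length trend removed the log2 fold changes were 1.24 for Izumo2 and 1.47 for Izumo3 (edgeR adjusted p = 0.153 and 0.15). On log2(TPM + 1) both were 1.77 (limma adjusted p = 0.0847 and 0.0958), and the median of the 8 genes was 0.65 where that of all genes was -0.25.

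Without circSry KO replicate 3, edgeR called 6 of the 8 higher, all but Izumo4 and Spaca6, against 18.5% of all genes. In that comparison Izumo2 had a log2 fold change of 2.07 (edgeR adjusted p = 0.00108), Izumo1 1.41 (edgeR adjusted p = 0.0033) and Izumo3 1.93 (edgeR adjusted p = 0.0033). Tmem95 had 1.39, Dcst1 1.16 and Dcst2 0.99 (edgeR adjusted p = 0.00755, 0.0123 and 0.0242). Because that library was set aside for standing apart, these p-values are too small.

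**Figure D3:**
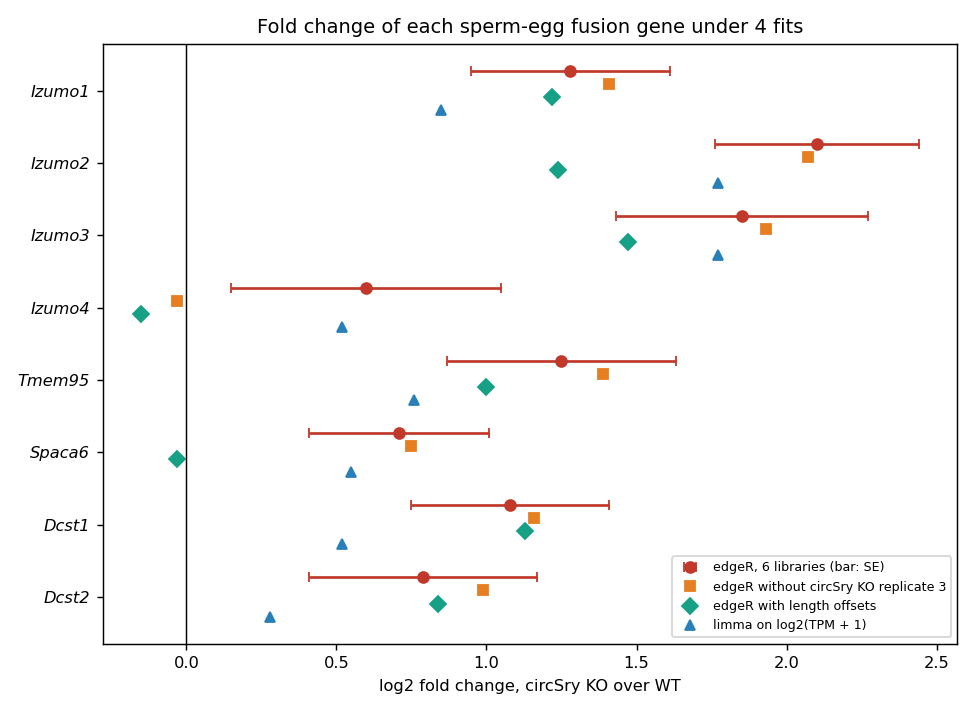
Log2 fold change (circSry KO over WT) of each fusion gene under 4 fits: edgeR on all 6 libraries with its SE as a bar, edgeR without circSry KO replicate 3, edgeR with each library's length trend removed, and limma on log2(TPM + 1). Izumo2 and Izumo3 stay at 1.24 or above in each, while Izumo4 and Spaca6 reach -0.15 and -0.03 with the length trend removed.

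Other sperm factors of fusion stood mostly on the same side. Of 8 symbols listed 7 were in the table and 6 had enough counts to be tested. Of these 3 were higher and 0 lower at an unadjusted p under 0.05, against 13.6% and 9.84% of all genes. Their median log2 fold change was 0.98. Llcfc1, whose product SOF1 is needed for fusion in mice, stood at 149, 134 and 85.8 CPM in circSry KO replicates 1, 2 and 3 and at 63.9, 32.9 and 48.3 CPM in WT replicates 1, 2 and 3. In CPM all circSry KO libraries of Llcfc1 were above WT, whereas in TPM circSry KO replicate 3, at 129, lay inside the WT range of 110 to 164. Llcfc1 had a log2 fold change of 1.35 ± 0.37 (SE; edgeR adjusted p = 0.0995). 4930451I11Rik, which encodes the fusion protein FIMP, had 29.9 ± 13.5 CPM in circSry KO and 10.1 ± 3.78 in WT (SD, n = 3 each), and a log2 fold change of 1.56 ± 0.46 (SE; edgeR adjusted p = 0.112). Eqtn, a protein of the acrosomal membrane, had 85.2 ± 29.1 CPM in circSry KO and 25.7 ± 5.44 in WT (SD, n = 3 each), and a log2 fold change of 1.73 ± 0.38 (SE; edgeR adjusted p = 0.0877). In TPM Eqtn had 44.0 in circSry KO replicate 3, inside the WT range of 38.5 to 45.9. Without circSry KO replicate 3 edgeR called 3 of these 6 genes higher, against 18.5% of all genes. Their log2 fold changes were 1.94 for Eqtn, 1.5 for Llcfc1 and 1.10 for 4930451I11Rik (edgeR adjusted p = 0.000935, 0.00481 and 0.0386).

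Tmem81, the third partner of the IZUMO1 and SPACA6 complex, stood at 25.9, 17.9 and 16.7 CPM in circSry KO replicates 1, 2 and 3 and at 14.6, 12.4 and 13.9 CPM in WT replicates 1, 2 and 3. In TPM circSry KO replicate 3 had 8.42, below the 12.4 to 14.1 of WT, so the groups were separate in CPM but not in TPM. Tmem81 had a log2 fold change of 0.57 ± 0.33 (SE; edgeR adjusted p = 0.335). Spesp1, an equatorial segment protein, had 0.61 ± 0.31 (SE; edgeR adjusted p = 0.265). Pkdrej, a sperm receptor-like protein, had 0.03 ± 0.35 (SE; edgeR adjusted p = 0.972), at 93.2 ± 34.1 CPM in circSry KO and 91.4 ± 14.7 in WT (SD, n = 3 each). Crisp1, a protein added in the epididymis, had at most 2 counts in a library.

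On the egg side, Izumo1r, which encodes JUNO, had 0 counts in all 6 libraries, which allows up to 0.383 CPM in circSry KO and up to 0.412 in WT (3 counts per library, counting error only). The egg coat genes Zp1, Zp2 and Zp3 and the egg protease gene Astl had 0 to 11 counts per library in circSry KO and 0 to 8 in WT. The tetraspanin genes Cd9 and Cd81, needed on the egg but expressed in many somatic cells, had 10.3 ± 6.81 CPM and 19.7 ± 9.18 in circSry KO and 4.08 ± 1.19 and 15.2 ± 3.55 in WT (SD, n = 3 each). Cd9 stood at 15.3 and 13.2 CPM in circSry KO replicates 1 and 2 and at 2.55 in replicate 3, against 3.02 to 5.36 in WT. Dcstamp and Ocstamp, the relatives of Dcst1 and Dcst2 that act in osteoclasts, had at most 4 counts in a library.

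Genes of the acrosome, the vesicle in which IZUMO1 is stored, had a median close to that of the fusion genes. Of 23 tested, 14 were higher and 1, Gopc, was lower at an unadjusted p under 0.05, against 13.6% and 9.84% of all genes. After adjustment in edgeR 0 passed, and the median log2 fold change was 1.18. The most abundant, Acrbp and Spink2, had log2 fold changes of 0.68 ± 0.37 and 1.06 ± 0.53 (SE; edgeR adjusted p = 0.3 and 0.258). Acr, which encodes the protease acrosin, had a log2 fold change of 0.28. Without circSry KO replicate 3 edgeR called 13 of the 23 higher and 1 lower, where 18.5% of all genes were called higher. The log2 fold changes of Acrbp and Spink2 were then 0.34 and 0.27.

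Markers of germ cell stages and of other cells were summed beside the fusion genes. Their counts at an unadjusted p under 0.05 stand beside 13.6% higher and 9.84% lower over all genes tested. Round spermatid markers, of which 24 of 25 were tested, summed to 3440 to 5591 CPM in circSry KO and 1413 to 2391 in WT, and had a median log2 fold change of 1.61, with 22 higher at an unadjusted p under 0.05. Elongating spermatid markers, of which 21 of 22 were tested, summed to 11697 to 22657 CPM in circSry KO and 4223 to 7759 in WT, with a median of 2.04 and 19 higher. Pachytene and diplotene markers (18 of 18 tested) summed to 10184 to 15403 CPM in circSry KO and 12136 to 14574 in WT, with a median of 0.06, with 3 higher and 2 lower at an unadjusted p under 0.05. Early prophase markers (21 of 21 tested) summed to 1381, 1310 and 2505 CPM in circSry KO replicates 1, 2 and 3 and to 2199 to 2602 in WT, so circSry KO replicate 3 lay inside the WT range, and had a median of -0.75, with 6 lower and 1, Syce2, higher at an unadjusted p under 0.05. The most abundant genes of these lists had log2 fold changes of 1.09 for Actl7b and 0.25 for Tmbim7 (round spermatid), 0.57 for Odf2 and 2.37 for Tnp2 (elongating spermatid), 0.35 for Ldhc and -0.92 for Ybx2 (pachytene), and 0.00 for Syce1 and -1.23 for Sycp2 (early prophase). None of these markers was at 0 in all libraries, and edgeR on all 6 libraries passed 0 of them after adjustment. Without circSry KO replicate 3 the medians were 1.78 for round and 2.21 for elongating spermatids. Pachytene and diplotene turned direction, at -0.24, and early prophase had -1.83. In that fit edgeR called 22 and 18 of the round and elongating spermatid markers higher and 0 of either lower. It called 2 pachytene and diplotene markers higher and 4 lower, and 0 early prophase markers higher and 13 lower. Of all 17948 genes tested in that fit, 3319 (18.5%) were called higher and 2909 lower.

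The fusion genes thus had a median log2 fold change below those of both spermatid lists and above that of the pachytene list, without a test of the difference. Sertoli cell markers (16 of 20 tested, led by Clu and Ctsl) summed to 312 to 512 CPM in circSry KO and 100 to 127 in WT, with 14 higher at an unadjusted p under 0.05. Leydig cell markers (12 of 13 tested, led by Insl3 and Cyp17a1) summed to 383, 329 and 831 CPM in circSry KO replicates 1, 2 and 3 and to 703 to 1024 in WT, with 1 higher and 8 lower. Endothelial and peritubular markers (15 of 16 tested, led by Dcn and Sparc) summed to 806, 906 and 87.0 CPM in circSry KO replicates 1, 2 and 3 and to 224 to 317 in WT, with 3 higher. Spermatogonial markers (17 of 17 tested, led by Uchl1 and Id4) summed to 277 to 341 CPM in circSry KO and 285 to 327 in WT, with 4 higher and 1 lower. Macrophage and leukocyte markers (12 of 17 tested, led by Apoe and Cd74) summed to 798, 424 and 80.2 CPM in circSry KO replicates 1, 2 and 3 and to 54.0 to 113 in WT, with 10 higher. Of all genes tested, 13.6% were higher and 9.84% lower at that unadjusted threshold. Without circSry KO replicate 3 edgeR called 15 of 17 Sertoli and 17 of 17 macrophage and leukocyte markers higher. It called 10 of 16 endothelial and peritubular markers higher. Medians were 2.05, 4.03 and 1.16 in that order. The low-count filter let more of these markers into that fit than the 16, 12 and 15 tested with all 6 libraries. A gene can pass that filter through the group where it is high, so these counts and medians are not like for like. In that fit 8 of 13 Leydig markers were called lower and 0 higher, and 6 of 17 spermatogonial markers higher and 2 lower. The Leydig and spermatogonial medians were -1.38 and 0.76. In these bulk samples more cells of a stage and more RNA per cell cannot be told apart, and the part of spermatids or other cells in the levels of the fusion genes was not tested.

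**Figure D4:**
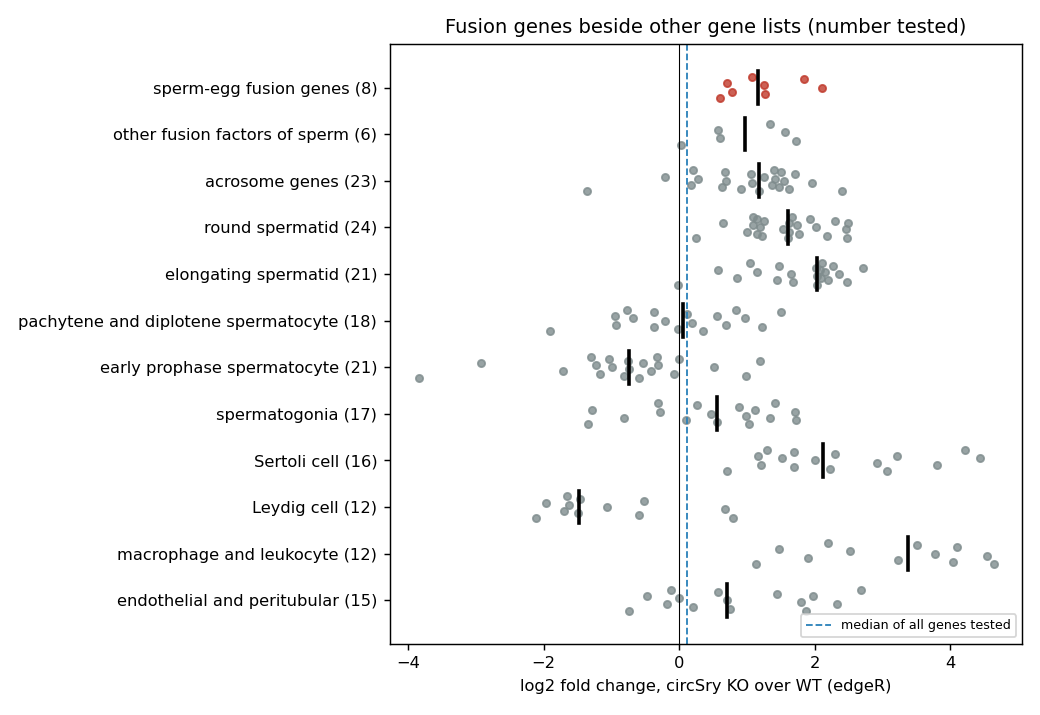
Log2 fold change (circSry KO over WT, edgeR on 6 libraries) of each tested gene in the fusion list (red) and in other lists (grey), with the number tested in brackets, black bars at list medians and a dashed line at the median of all genes, 0.12. The 8 fusion genes lie between 0.60 and 2.10, beside the acrosome genes at a median of 1.18 and below the spermatid lists at 1.61 and 2.04.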

How the data were processed

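For every gene the authors deposited, per the file headers, an estimated count as well as TPM and FPKM values in each library. The builds GRCm39 and mm9 both appear in the submitters' processing notes, with no role, beside RSEM 1.3.2, STAR 2.7.0f and edgeR 3.28.1. No source used here gives the annotation. The labels' protocols name a TruSeq RNA kit that does not mark strand, so overlapping genes on opposite strands cannot be separated. Intervals and floors cover counting error only.

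The deposited estimated counts were rounded and tested in R 4.3.3 with edgeR 4.0.16 (filterByExpr, TMM, quasi-likelihood F test on genotype, Benjamini-Hochberg over 16829 genes, threshold 0.05). Each SE was obtained by dividing the absolute log2 fold change by the root of its F statistic. The deposited TPM served for levels between genes. Deposited FPKM gave effective lengths, as counts over FPKM and library total, and matched TPM within 1% of a fixed ratio per library for all 8 genes. Length trends were lowess fits (span 0.3) of each library's log2 CPM, less the gene mean, on length. limma was 3.58.1 and DESeq2 1.42.0. Positions came from GENCODE M21 (GRCm38), a build that may not be the one counted on.

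All 8 fusion genes were named, with every gene of the small fusion lists found in the deposited table. Of the egg list, 7 of 8 symbols were found there. The rule also named the 2 most abundant genes of each other list and the 5 genes most alike. Gopc, Syce2, Acr, Hspa2, Piwil1, Sycp3, Prm1, Sry, the genes overlapping a fusion gene and the microRNA genes of the Spaca6 locus were named outside this rule, after their values were seen. Members and lists were chosen with earlier results of these data known. The model was first tested on simulated data with known fold changes.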

Additional observations from a re-analysis of the deposited data

How the results depend on the processing

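Other scaling factors (RLE, upper quartile), other filters (none, or 1 CPM in 3 libraries), DESeq2, limma-voom, a replicate block, length offsets, limma on TPM with a pseudocount of 1 or 0.1, and the removal of each library were tried. Over all genes edgeR called 0, against 869 with no filter, 1943 with DESeq2, 6 on log2(TPM + 1) and 7 on log2(TPM + 0.1); leaving out a library gave 0 to 6228. Among the 8 fusion genes the count was 0, against 2 with no filter (Izumo2 and Izumo3) and 5 with DESeq2; leaving out a library gave 0 to 6, the 6 without circSry KO replicate 3. The fusion genes' median log2 fold change of 1.17 was 0.65 on log2(TPM + 1) and 0.67 on log2(TPM + 0.1), where the median of all genes shifted by -0.37 and -0.46, and 0.95 to 1.28 over left-out libraries. The number of fusion genes with every circSry KO library above every WT library was 6 in CPM and 3 in TPM, a scale added after seeing the data. It was 6 to 7 over left-out libraries, but with fewer libraries such separation is easier, so that range is no measure of stability. Of 128 fold changes of single fusion genes, 112 kept direction and side of the threshold, 13 passed it and 3 changed sign: Izumo4 at -0.03 without circSry KO replicate 3 (0.90 without replicate 2) and at -0.15 with length offsets, and Spaca6 at -0.03 with length offsets. The causes were not tested. List medians and length offsets without circSry KO replicate 3, and ratios in CPM, were added after seeing the data.

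The labels number the replicates alike in both groups. Deviations of same-numbered libraries from their group means correlated at 0.01, 0.31 and -0.24. With 3 libraries per group such values cannot show whether same-numbered samples were handled together. With the replicate block 0 genes passed, 0 of them fusion genes, and the fusion median was 1.13; not every sample correlated best with its own number.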

Other observations

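Among 10667 other genes with an assigned symbol and a mean of at least 5 CPM, the 5 whose log2 CPM followed the mean standardised profile of the 8 fusion genes most closely over the 6 libraries were Tpte, Tex29, Tmod1, Tex45 and Lrrc72, with Pearson r from 0.993 to 0.998. With 6 libraries and 2 groups such values describe a shared difference between groups more than a finer pattern, and they carry no test. Tex29 had 77.1 ± 15.7 CPM in circSry KO and 24.4 ± 4.81 in WT, Tex45 37.3 ± 3.71 and 11.7 ± 2.51, and Lrrc72 36.6 ± 2.45 and 11.9 ± 2.91 (SD, n = 3 each). Tpte had a log2 fold change of 1.40 ± 0.36 and Tmod1, a tropomodulin that caps actin filaments, 1.04 ± 0.32 (SE). The fusion genes themselves followed this profile at r from 0.815 to 0.974, apart from Izumo4 at 0.316. Each of them is part of that mean, which raises its own r, so these values are not comparable with those of the other genes.

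The effective length behind the authors' TPM varied between libraries for Izumo3 and Izumo4. For Izumo4 it was 549, 625 and 394 bases in circSry KO replicates 1, 2 and 3 and 599, 785 and 765 in WT replicates 1, 2 and 3. For Izumo3 it was 736, 828 and 605 bases in circSry KO replicates 1, 2 and 3 and 764, 1006 and 849 in WT replicates 1, 2 and 3. Both were shortest in circSry KO replicate 3. The lengths of Izumo1 (1335 to 1397 bases in circSry KO and 1394 to 1418 in WT) and Dcst2 (2050 to 2061 bases in circSry KO and 2026 to 2048 in WT) varied less.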
